A study of Mus musculus with 6 samples.

Results

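Nicotinamide adenine dinucleotide (NAD) is the redox carrier that sirtuins and poly(ADP-ribose) polymerases also break down as a substrate, and the genes described here make it, recycle it or draw on it. The members were chosen by name, and a gene entered where a probe set carried its symbol and no other in the platform annotation. Of 10 listed genes, 8 met this rule, among 12393 genes of the array. They are the synthesis genes Haao, Qprt, Nmnat1, Nmnat3 and Nadk, the salvage gene Nampt, and Nnmt and Parp1, whose enzymes consume nicotinamide or NAD. Nadsyn1 and Cd38 had no probe set that met the rule and were not analysed here. All 8 had a mean log2 value of at least 4, the limit for entering the fit, as did 8343 of all genes.

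RNA came from 3 mouse liver samples labelled as SIRT7 knockout and 3 labelled as wild type at the Sirt7 allele, called livers here although the labels do not say that each is a separate animal. Each sample was hybridised to a 1-colour Affymetrix array. SIRT7 is a nuclear sirtuin, an NAD-dependent deacylase, and the title of the series ties it to MYC activity. The labels state that the samples shared 1 treatment regime and give no strain, age, sex, diet or hour of dissection. The sources used here do not say how the allele was made, or whether Sirt7 is missing from every tissue or from hepatocytes alone.

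The liver is the organ that makes NAD from tryptophan on a large scale. In this de novo route the kynurenine pathway opens the indole ring, 3-hydroxyanthranilate dioxygenase (Haao) forms the precursor of quinolinate, and quinolinate phosphoribosyltransferase (Qprt) turns quinolinate into nicotinate mononucleotide. The adenylyl transferases Nmnat1 and Nmnat3 add the adenylate moiety in the last common steps, and NAD kinase (Nadk) phosphorylates NAD to NADP. Sirtuins, Parp1 and NAD glycohydrolases release nicotinamide, which Nampt returns to the pool in the rate-limiting step of salvage, while Nnmt methylates nicotinamide with S-adenosylmethionine and so removes it.

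The arrays were alike in range, with medians of 5.69 to 5.77. Pearson correlations across the tested genes were 0.962 to 0.984 within groups and 0.949 to 0.979 between them, and genes are not independent replicates. Wild-type replicate 3 resembled the knockout arrays (0.972, 0.977 and 0.979) more than the other wild-type arrays (0.968 and 0.971). Knockout replicate 3 likewise had 0.962 and 0.976 with the other knockout arrays, against 0.969, 0.976 and 0.979 with the wild-type arrays. Member differences are therefore also given without either of them. Sirt7 itself, on 1 probe set, was at 2.38, 3.11 and 2.86 in knockout livers, against 9.85, 9.80 and 9.57 in wild-type livers, as the labels have it. The sources used here do not say where that probe set lies relative to the deletion. Hepatocyte markers averaged 12.46 to 12.71 in the knockout livers and 12.50 to 12.74 in the wild-type livers over 10 genes. Adipocyte (3 genes) and muscle markers (5 genes) all had means under 4.

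None of the 8 genes passed limma's test at an adjusted p under 0.05 (0 higher, 0 lower). Over all tested genes 0.024% passed, which is 2 genes of 8343, Sirt7 among them. No member reached an unadjusted p under 0.05 either, against 6.46% of all genes. Of the 8 genes, 6 were lower and 2 higher on average in knockout livers, with a median log2 difference of -0.12, and over all genes 54.6% were lower with a median of -0.03. Only in Nmnat3 did the groups not overlap, all 3 knockout livers being lower, a pattern that 5.48% of all genes had (9.74% counting both directions). In whole tissue, fewer cells of a type and less RNA per cell cannot be told apart.

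**Figure D1:**
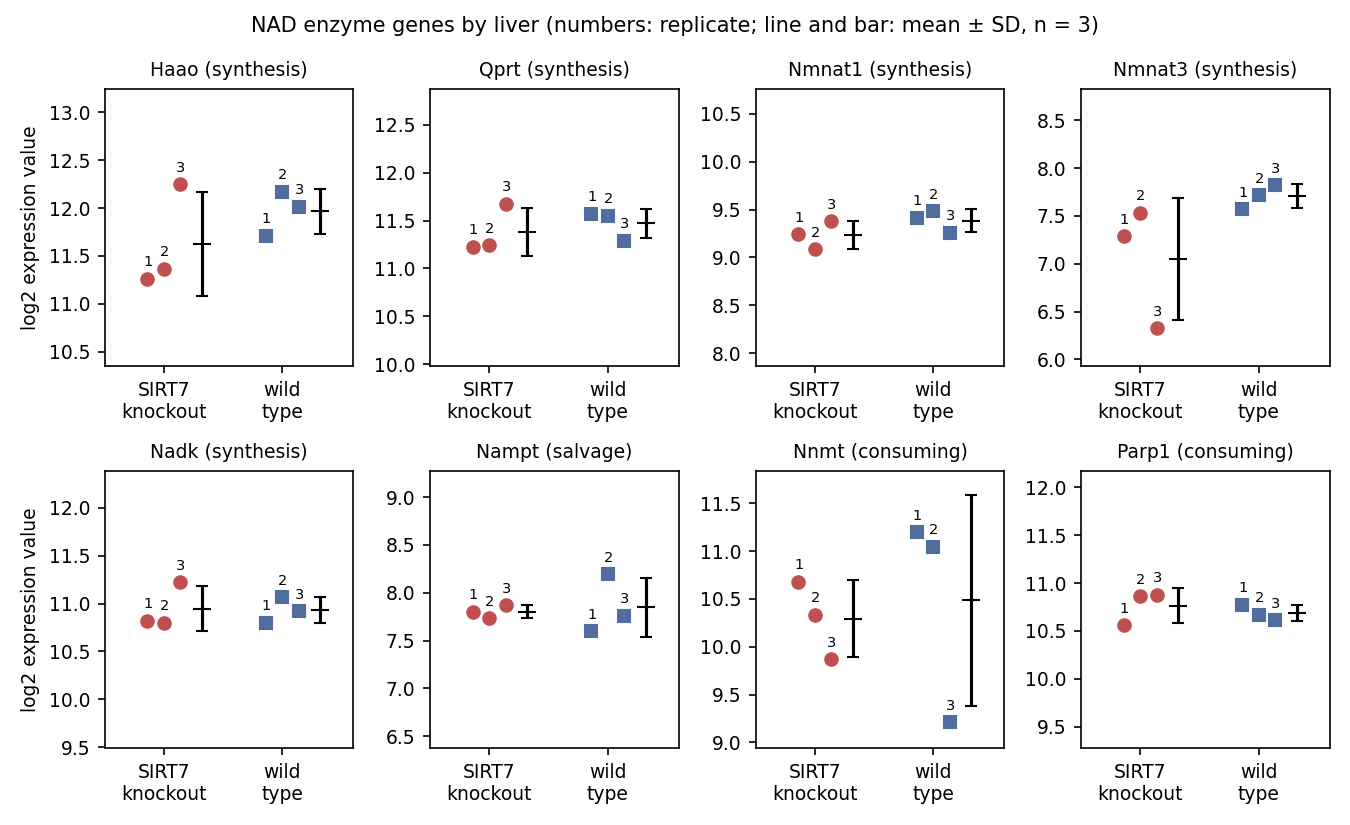
Log2 expression value (y axis) of the brightest probe set of each of the 8 genes in 3 SIRT7 knockout livers (circles) and 3 wild-type livers (squares); numbers are replicates, and the line with its bar is the mean ± SD. Every panel spans the same range of log2 units: Nnmt in wild type (9.21 to 11.20) and Nmnat3 in knockout (6.33 to 7.53) spread widely, while Parp1 stays within 0.32 log2 units over all livers.

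Among the de novo genes, Haao was at 11.26, 11.37 and 12.25 in knockout livers, against 11.71, 12.17 and 12.02 in wild-type livers. Knockout replicates 1 and 2 lay under every wild-type liver, and knockout replicate 3 lay above them all. The mean was 11.63 ± 0.54 in knockout and 11.97 ± 0.24 in wild type (SD, n = 3 each), a log2 difference of -0.34 (limma SE 0.29, 95% interval -0.99 to 0.31, adjusted p = 0.833). Without knockout replicate 3 the difference was -0.65, at an unadjusted limma p of 0.0159 and an adjusted p of 0.267. Limma with array weights also gave -0.65 and called Haao (adjusted p = 0.0337), alone among the members, where 21.0% of all genes passed; the weights ran from 0.31 for knockout replicate 3 to 6.12 for knockout replicate 2. The mean of the 10 hepatocyte markers was 12.53, 12.46 and 12.71 in knockout livers, against 12.50, 12.66 and 12.74 in wild-type livers, highest in wild-type replicate 3, and its part in the Haao values was not tested.

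Qprt, which takes up the product of the Haao branch, was at 11.23, 11.24 and 11.67 in knockout livers, against 11.57, 11.55 and 11.29 in wild-type livers. The groups overlapped, with knockout replicate 3 again the highest of its group. The log2 difference was -0.09 (limma SE 0.21, 95% interval -0.56 to 0.38, adjusted p = 0.941), so that knockout levels between 0.68 and 1.30 times those of wild type lie inside the interval. A dimmer Qprt probe set differed by -0.18 (95% interval -0.82 to 0.46).

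Nmnat1, the nuclear adenylyl transferase gene, was at 9.24, 9.09 and 9.38 in knockout livers, against 9.42, 9.49 and 9.26 in wild-type livers. These 6 values lay within 0.40 log2 units of each other, and the groups overlapped. The difference was -0.15 (limma SE 0.18, 95% interval -0.57 to 0.27, adjusted p = 0.874). A second, dimmer probe set pointed the other way, at 6.96, 6.85 and 6.95 in knockout livers, against 6.63, 6.10 and 7.10 in wild-type livers, a difference of 0.31 (95% interval -0.28 to 0.90). The direction for Nmnat1 therefore depends on the probe set.

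Nmnat3, whose enzyme is placed in mitochondria, was the member with the largest difference between groups. It was at 7.29, 7.53 and 6.33 in knockout livers, against 7.57, 7.72 and 7.82 in wild-type livers. Knockout replicate 2 came within 0.04 log2 units of the lowest wild-type liver, and knockout replicate 3 lay far below the rest. The mean was 7.05 ± 0.64 in knockout and 7.70 ± 0.13 in wild type (SD, n = 3 each). The log2 difference of -0.66, 1.57-fold lower, did not pass (limma SE 0.31, 95% interval -1.35 to 0.04, unadjusted p = 0.0622, adjusted p = 0.773). It shrank to -0.29 without knockout replicate 3 and was -0.90 without knockout replicate 2. The gene has 1 probe set, so no second one could be set beside it.

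Nadk was at 10.82, 10.80 and 11.22 in knockout livers, against 10.80, 11.07 and 10.92 in wild-type livers. The ranges overlapped almost fully, and knockout replicate 3 was the highest of all. The difference was 0.02 (limma SE 0.20, 95% interval -0.44 to 0.47, adjusted p = 0.989), and 0.04 on its second probe set. Knockout levels from 0.74 to 1.39 times those of wild type are compatible with this interval.

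Nampt, the salvage enzyme gene and a known output of the circadian clock, was at 7.80, 7.73 and 7.87 in knockout livers, against 7.60, 8.20 and 7.76 in wild-type livers. The knockout livers lay close together (SD 0.07) inside the range of the wild-type livers (SD 0.31). The difference was -0.05 (limma SE 0.21, 95% interval -0.53 to 0.43, adjusted p = 0.973), and it was 0.12 without wild-type replicate 2, the highest liver. A second Nampt probe set had a mean of 3.62, under the limit for testing, and differed by -0.13.

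The range of Nampt over the 6 livers was 0.60 log2 units, and 31.8% of the tested genes had a smaller one. The median range was 1.26 over 15 tested clock genes and 0.75 over all tested genes. Clock (0.45), Cry2 (0.39) and Hlf (0.55) had ranges under that of Nampt. Of these 15 genes 10 were higher and 5 lower, and 0 passed. The groups did not overlap in 3 that were higher (4.27% of all genes) and 2 that were lower (5.48%). Nr1d1, a clock repressor gene, was at 7.31, 7.21 and 6.80 in knockout livers, against 6.57, 6.05 and 6.11 in wild-type livers. The difference was 0.86 (limma SE 0.23, adjusted p = 0.678). Wee1, a mitotic inhibitor kinase gene, differed by 1.11 (SE 0.30, adjusted p = 0.705) and Dbp, a clock output transcription factor gene, by 0.64. The lower genes were Npas2, a paralog of Clock, at -1.27 (SE 0.40, adjusted p = 0.746), and the repressor gene Cry1 at -0.47.

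The mean over 16 acute phase genes was highest in wild-type replicate 2, the liver with the highest Nampt value, at 11.05, 10.81 and 11.00 in knockout livers, against 11.10, 11.76 and 11.17 in wild-type livers. That liver was the highest for 10 of the 16 genes. Of the 16 genes 2 were higher and 14 lower in knockout livers (54.6% of all genes were lower), and 0 passed. The 2 with the smallest p were Saa1 (serum amyloid A1) and Saa2. Saa1 stood at 11.25, 10.62 and 11.68 in knockout livers, against 11.99, 12.58 and 12.09 in wild-type livers (difference -1.04, limma adjusted p = 0.725). Saa2 stood at 10.79, 9.39 and 9.74 in knockout livers, against 10.71, 12.22 and 11.29 in wild-type livers (difference -1.44, limma adjusted p = 0.746). The part of the acute phase genes in the Nampt value of wild-type replicate 2 was not tested.

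Nnmt varied most among the members. It was at 10.68, 10.33 and 9.87 in knockout livers, against 11.20, 11.04 and 9.21 in wild-type livers. The highest and the lowest liver were both wild type, 3.96-fold apart, and the knockout livers lay between them. Of all tested genes 96.3% had a smaller range over the 6 livers. The mean was 10.29 ± 0.41 in knockout and 10.48 ± 1.10 in wild type (SD, n = 3 each), a difference of -0.19 (limma SE 0.49, 95% interval -1.31 to 0.93, adjusted p = 0.953). The interval runs from 0.40 to 1.91 times the wild-type level, so knockout levels anywhere in that range are compatible with these values. Without wild-type replicate 3 the difference was -0.83 (adjusted p = 0.311), and without wild-type replicate 1 it was 0.17.

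Fat tissue is a rich source of Nnmt, and the adipocyte markers on the array (Adipoq, Lep and Retn) had values of 1.81 to 2.75 in all livers. The average of these markers, 3 of 5 listed, was 2.24, 2.28 and 2.21 in knockout livers, against 2.37, 2.25 and 2.09 in wild-type livers. The part of fat tissue in the Nnmt values was not tested. Nearest to Nnmt in profile over the 6 livers were Serpinb9, a protease inhibitor gene, the zinc finger gene Zfp975, and the kinase gene Sbk1. Their root mean square distances from Nnmt, after centring each gene, were 0.23, 0.24 and 0.25 log2 units. Serpinb9 was at 7.97, 7.85 and 7.19 in knockout livers, against 8.09, 8.14 and 6.79 in wild-type livers, likewise lowest in wild-type replicate 3. For Nmnat3, the second member by spread, the nearest were Bpnt1, a nucleotidase gene (0.15), the cytochrome gene Cyp2c54 (0.17) and Strn, the striatin gene (0.19). Bpnt1 was at 10.67, 10.91 and 9.35 in knockout livers, against 10.77, 10.84 and 10.85 in wild-type livers, so knockout replicate 3 stood apart there too. These genes were picked for likeness, out of all tested genes and on 6 livers, and carry no test.

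Parp1, the main DNA-damage-activated polymerase and a large consumer of NAD, was at 10.56, 10.86 and 10.88 in knockout livers, against 10.77, 10.67 and 10.61 in wild-type livers. Knockout replicate 1 was the lowest liver and the other knockout livers were the highest. The difference was 0.08 (limma SE 0.19, 95% interval -0.34 to 0.50, adjusted p = 0.938). Only 5.07% of the tested genes had a smaller range over the 6 livers. Another pair of probe sets for Parp1, at means of 7.12 and 6.35, differed by 0.26 and 0.30. The brighter was at 7.03, 7.50 and 7.21 in knockout livers, against 6.57, 6.83 and 7.56 in wild-type livers. The dimmer was at 6.43, 6.56 and 6.51 in knockout livers, against 5.97, 5.92 and 6.72 in wild-type livers. On both, wild-type replicate 3 was the highest of all livers and the other wild-type livers were the lowest, which the brightest probe set did not show.

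**Figure D2:**
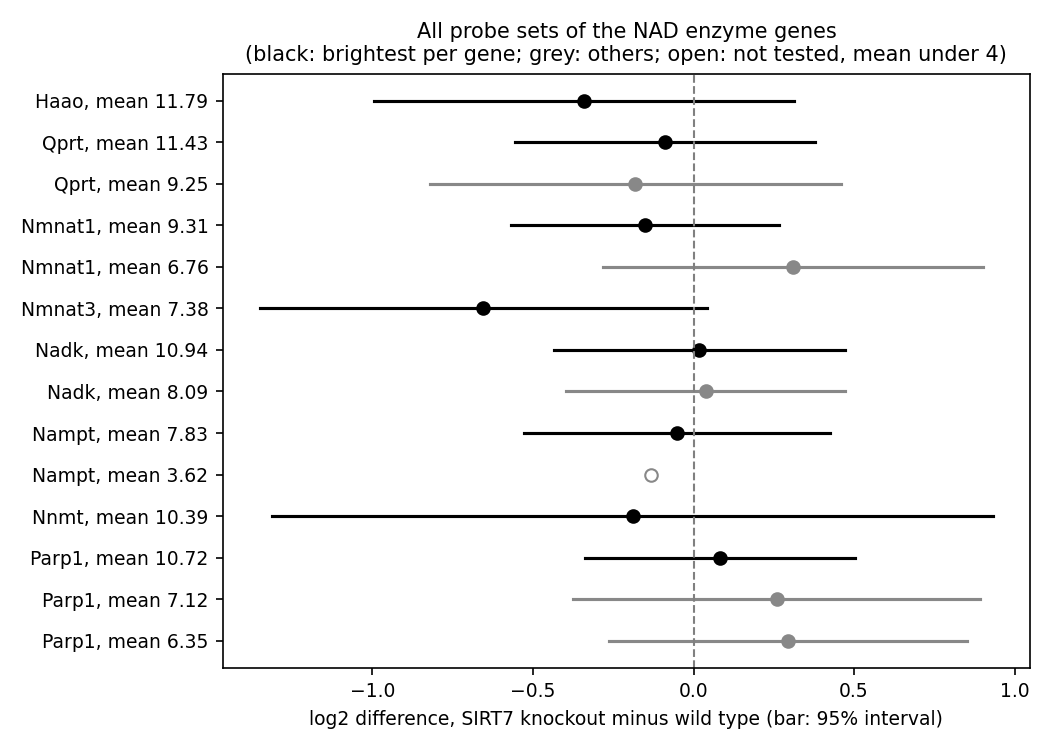
Log2 difference, SIRT7 knockout minus wild type (x axis), for all 14 probe sets of the 8 genes, with the mean over 6 livers beside each name and 95% limma intervals as bars. Every tested interval spans 0; the second Nmnat1 probe set (0.31) lies on the other side of 0 from the first (-0.15), and the open circle marks the Nampt probe set that was not tested.

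Leaving out 1 liver at a time brought no member past the threshold. The sign held in all 6 such fits for Haao (-0.65 to -0.16), Qprt (-0.24 to -0.01), Nmnat1 (-0.22 to -0.08), Nmnat3 (-0.90 to -0.29) and Parp1 (0.03 to 0.19). It changed for Nadk (-0.12 to 0.09), Nampt (-0.18 to 0.12) and Nnmt (-0.83 to 0.17). Single livers thus moved Haao, Nmnat3 and Nnmt by more than the other members.

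**Figure D3:**
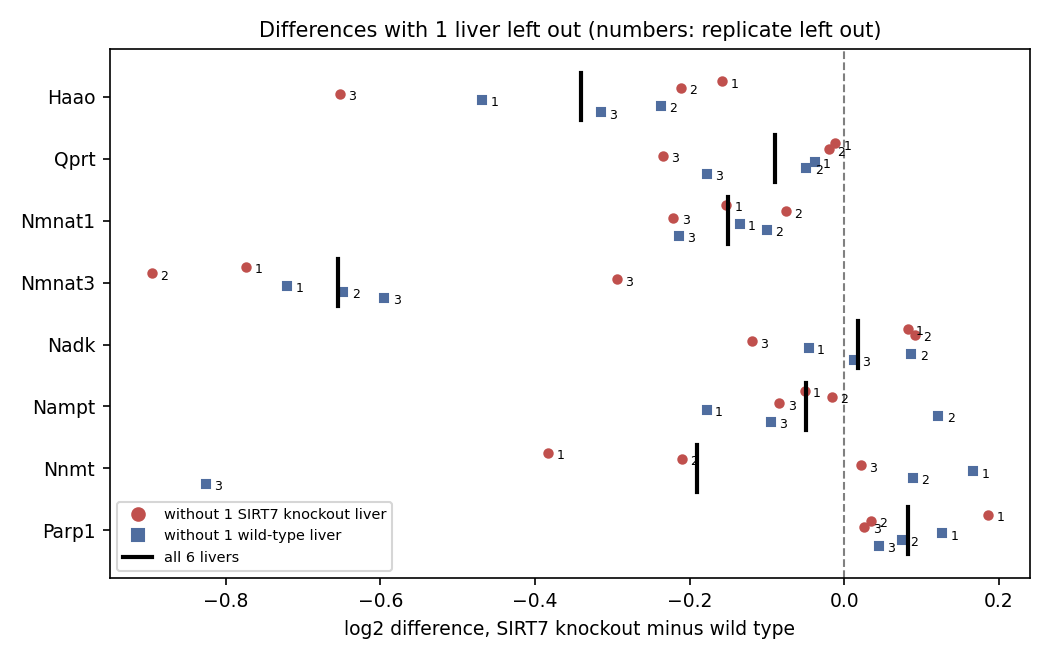
Log2 difference, SIRT7 knockout minus wild type (x axis), for each of the 8 genes with all 6 livers (black line) and with 1 knockout liver (circles) or 1 wild-type liver (squares) left out, numbered by replicate. The widest shifts are those of Nnmt without wild-type replicate 3 (-0.83), Nmnat3 without knockout replicate 3 (-0.29) and Nnmt without wild-type replicate 1 (0.17).

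Promoter windows from 250 bases before to 50 bases after an annotated start were found in RefSeq (GRCm38.p6) for 7 of the 8 genes, 9 windows in all. Given the link of the series to MYC, the windows were searched for the E-box CACGTG, which MYC and the clock factors CLOCK and BMAL1 bind and which reads the same on both strands. They were also searched on both strands for CCGGAAG, a 7-base motif bound by ETS factors, since the ETS factor ELK4 is known to recruit SIRT7 in human cells. Only full matches were counted, so a window without the motif may still hold a shorter part of it. The matches of the 2 motifs did not overlap. Parp1 and 1 of the Nadk starts held the E-box, found in 7.15% of all 32851 windows. Nmnat1 held the ETS motif, found in 8.86%, in each of its 2 overlapping windows. For each of these 3 genes, 1 window is shown with the motif in capitals. The window of Nmnat3, the gene whose groups did not overlap, is shown beside them as 1 of 4 genes with neither motif.
Parp1, chr1:180568641-180568940, plus strand: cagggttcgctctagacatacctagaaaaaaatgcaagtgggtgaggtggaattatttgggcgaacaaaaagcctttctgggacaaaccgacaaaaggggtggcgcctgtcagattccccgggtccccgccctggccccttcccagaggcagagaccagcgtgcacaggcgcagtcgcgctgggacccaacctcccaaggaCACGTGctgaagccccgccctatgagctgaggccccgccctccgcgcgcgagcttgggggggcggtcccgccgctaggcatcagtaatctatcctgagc
Nadk, chr4:155563565-155563864, plus strand: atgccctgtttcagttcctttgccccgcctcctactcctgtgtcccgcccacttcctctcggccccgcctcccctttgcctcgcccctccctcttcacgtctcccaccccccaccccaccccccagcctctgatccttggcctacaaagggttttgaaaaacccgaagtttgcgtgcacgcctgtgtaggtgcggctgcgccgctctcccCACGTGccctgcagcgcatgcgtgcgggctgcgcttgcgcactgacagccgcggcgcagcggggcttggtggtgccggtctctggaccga
Nmnat1, chr4:149485161-149485460, minus strand: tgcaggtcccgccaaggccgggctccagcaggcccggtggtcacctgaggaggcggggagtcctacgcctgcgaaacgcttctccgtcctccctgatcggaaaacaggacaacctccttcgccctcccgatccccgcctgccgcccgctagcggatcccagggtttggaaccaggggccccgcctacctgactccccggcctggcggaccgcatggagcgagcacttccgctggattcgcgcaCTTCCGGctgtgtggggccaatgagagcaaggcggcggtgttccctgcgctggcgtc
Nmnat3, chr9:98296320-98296619, plus strand: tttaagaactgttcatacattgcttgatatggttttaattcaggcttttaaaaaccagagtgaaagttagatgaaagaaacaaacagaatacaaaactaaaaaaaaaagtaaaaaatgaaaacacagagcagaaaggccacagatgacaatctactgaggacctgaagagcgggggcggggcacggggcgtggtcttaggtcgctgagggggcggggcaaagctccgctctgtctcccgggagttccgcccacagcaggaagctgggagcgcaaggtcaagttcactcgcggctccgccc
Counted from the start site, the E-box began at base -49 in Parp1 and at base -40 in Nadk. The ETS motif, read here on its other strand, began at base -7 in the Nmnat1 window shown. From the other Nmnat1 start, the same match began at base -45. The genes with an E-box differed by 0.08 (Parp1) and 0.02 (Nadk), and Nmnat1, with the ETS motif, by -0.15. The genes with neither motif differed by -0.34 (Haao), -0.09 (Qprt), -0.66 (Nmnat3) and -0.05 (Nampt). A match is only a run of letters and shows no binding.

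Beyond the 8 genes, 63 others of NAD metabolism were listed, of which 49 were on the array and 44 were tested. Sirt7, the gene knocked out by design, was the only one to pass, which says nothing about the pathway. It fell by 6.96 on the log2 scale (limma SE 0.23, adjusted p = 3.99e-06). Sirt7 met the mean of 4 only through the wild-type livers. Its knockout values (2.38, 3.11 and 2.86) are low ones, so the size of the fall is not proportional to RNA amounts. Of the other 43 tested genes 16 were higher and 27 lower, with a median log2 difference of -0.09 and adjusted p-values of 0.76 and above. With array weights 13 of the 44, Sirt7 among them, passed, in a fit where 21.0% of all genes passed. The 13 include Kynu, Tdo2, Nt5c2, Aox1, Gamt and Oard1. That fit leaned on knockout replicate 2 (weight 6.12) over knockout replicate 3 (0.31). Before adjustment, 2 higher genes (background 3.04% of all genes) and 1 lower gene (background 3.42%) had a p under 0.05. The groups did not overlap in 3 genes that were higher (4.27% of all genes) and 3 that were lower (5.48%).

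Of the genes listed with the tryptophan route beside the members, 2 of 7 tested were higher and 5 lower, with a median of -0.38. They were Tdo2, Ido2, Afmid, Kmo, Kynu, Kyat3 and Aadat, and not all of them lie on the way to Haao. Kynu, kynureninase, was at 6.23, 5.89 and 5.01 in knockout livers, against 7.53, 6.89 and 5.85 in wild-type livers. It overlapped through wild-type replicate 3, and its difference of -1.04 did not pass (limma SE 0.45, unadjusted p = 0.0458, adjusted p = 0.772). It ran from -1.50 without wild-type replicate 3 (adjusted p = 0.189) to -0.66 without wild-type replicate 1 (adjusted p = 0.962). Tdo2, the hepatic tryptophan dioxygenase that opens the route, was at 11.50, 11.70 and 12.06 in knockout livers, against 12.05, 12.31 and 12.22 in wild-type livers, a difference of -0.44 (SE 0.21, adjusted p = 0.775) and of -0.21 on its second probe set. Knockout replicate 3 was the highest of its group, as for Haao and Qprt. Ido1, the dioxygenase of inflamed tissue, was listed at 2.13 on average and was not tested.

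Of the salvage and nucleotide genes 4 of 7 were higher and 3 lower. Nt5c2, a cytosolic nucleotidase gene, was at 8.46, 8.09 and 8.02 in knockout livers, against 6.94, 7.28 and 8.00 in wild-type livers. Wild-type replicate 3 came within 0.01 log2 units of the lowest knockout liver. The difference of 0.78 (1.72-fold, limma SE 0.29, unadjusted p = 0.0248) did not pass (adjusted p = 0.76), and another tested probe set gave 0.23. Slc25a51, which carries NAD into mitochondria, was at 11.26, 11.25 and 11.18 in knockout livers, against 11.40, 11.64 and 11.60 in wild-type livers, without overlap. Its difference of -0.32 had an adjusted p of 0.794 with limma (SE 0.18), and its dimmer probe sets gave -0.36 and -0.49 with overlapping groups.

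Among other NAD consumers, leaving Sirt7 aside, 2 of 13 tested genes were higher and 11 lower (54.6% of all genes were lower). Their median was -0.17, against -0.03 over all genes, and their differences ran from -0.60 to 0.21. Parp6, a mono-ADP-ribosyltransferase gene, had the smallest p of these, at 7.23, 7.55 and 7.56 in knockout livers, against 7.68, 8.03 and 7.76 in wild-type livers. The groups did not overlap, and the difference of -0.38 did not pass (limma SE 0.20, adjusted p = 0.781). The sirtuin genes Sirt1, Sirt2, Sirt3 and Sirt4 differed by 0.21, -0.30, -0.18 and -0.09, with limma adjusted p-values of 0.797 to 0.956. Of these, only Sirt2 had groups that did not overlap, the knockout livers being lower by a gap of 0.05 log2 units (5.48% of all genes). Bst1, a paralog of Cd38, had a mean of 3.30 and was not tested.

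Of the genes that clear methylated nicotinamide or supply and use methyl groups beside Nnmt, 4 of 9 were higher and 5 lower. Aox1, aldehyde oxidase, was at 10.76, 10.85 and 11.44 in knockout livers, against 11.42, 11.47 and 11.43 in wild-type livers. Knockout replicate 3 lay within the narrow wild-type range and the other knockout livers below it, and the difference was -0.42 (limma SE 0.22, adjusted p = 0.786). Gamt, a creatine synthesis methyltransferase gene, differed by 0.40 (SE 0.23, adjusted p = 0.796), and by 0.23 without wild-type replicate 1. In ADP-ribose turnover 4 of 7 genes were higher and 3 lower. Oard1, whose enzyme removes ADP-ribose from glutamate, was at 8.34, 8.03 and 7.74 in knockout livers, against 7.35, 7.36 and 7.67 in wild-type livers. These values did not overlap, but the difference of 0.58 (1.49-fold, SE 0.22) did not pass (unadjusted p = 0.0267, adjusted p = 0.76). Adprhl2, another ADP-ribosyl hydrolase gene, differed by 0.30 (SE 0.21, adjusted p = 0.799), and by 0.15 without wild-type replicate 1.

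**Figure D4:**
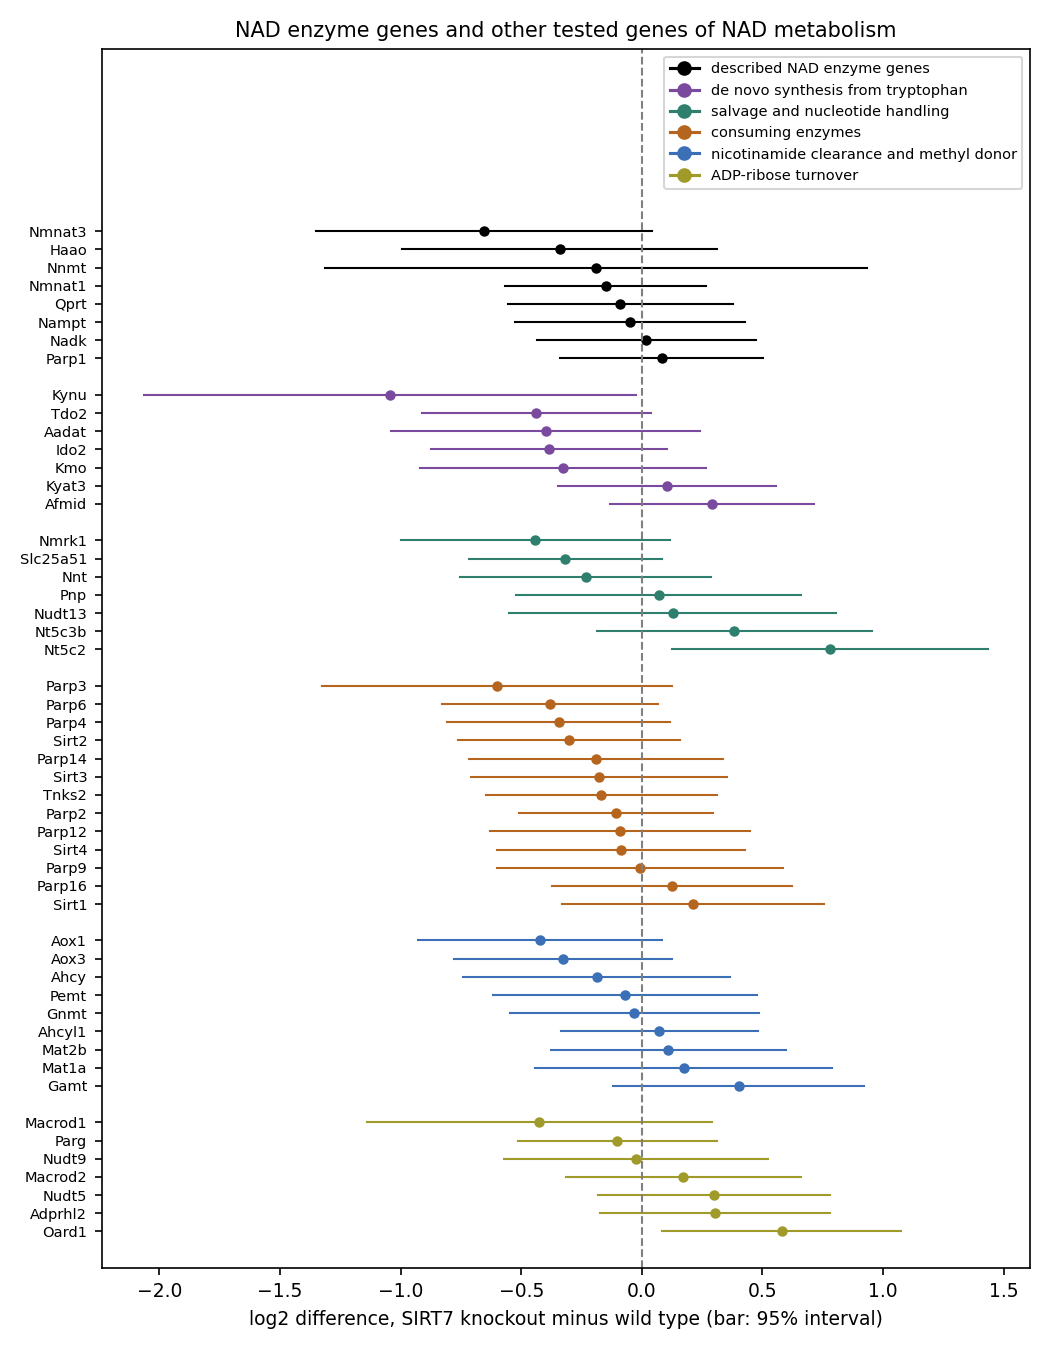
Log2 difference, SIRT7 knockout minus wild type (x axis), with 95% limma intervals for the 8 genes (black, top) and 43 other tested genes of NAD metabolism, coloured by role; Sirt7 is left off because its difference (-6.96) is beyond the axis. The intervals of Kynu (-2.06 to -0.03), Nt5c2 (0.13 to 1.43) and Oard1 (0.09 to 1.07) are the ones that leave 0 out, before adjustment over all genes.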

How the data were processed

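RNA of 6 liver samples was hybridised to 1 array each. The authors deposited log2 expression values, 1 per probe set and array, and the submitters' processing notes name GCRMA 2.20.0 and R 2.11.1, without settings. The log2 scale was read from the range of the values (0.841 to 13.969). GCRMA pulls unexpressed transcripts to low values, where log2 differences are not proportional to RNA amounts, and no detection calls came with them. Levels of different probe sets were not compared.

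Of 22626 probe sets, 20380 had 1 gene symbol in the platform annotation (691 had several, 1555 none or were not listed), and 20351 of their gene identifiers were found in the RefSeq table of GRCm38.p6. Each gene was represented by the probe set with the highest mean, and genes with a mean of at least 4 were tested. SIRT7 knockout was compared with wild type by limma 3.58.1 under R 4.3.3 (functions lmFit and eBayes, 2-sided, no replicate block, 4 residual and 4.6 prior degrees of freedom), adjusted by Benjamini-Hochberg over 8343 genes. Other probe sets of a gene were read from a fit of each probe set on its own. The number of arrays limits the precision, and nothing in the labels says that the livers of a group are separate animals; the spread behind each p-value may then be technical. The script was tested on simulated data.

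The members and gene lists were chosen with earlier results of these data known. The rule for named genes took all members. In each role of the pathway list it took the 2 genes with the smallest p and any gene without overlap between groups and a difference of at least 0.5. It also took 2 genes each of the clock and acute phase lists, and the 3 genes nearest in profile to the 2 members with the largest SD. Dbp, Npas2, Cry1, Clock, Cry2, Hlf, Ido1, Bst1 and the sirtuin genes Sirt1 to Sirt4 were added after their values were seen. Replicate numbers did not pair the samples.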

Additional observations from a re-analysis of the deposited data

How the results depend on the processing

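With all genes entered, a minimum mean of 6, the mean of probe sets, each probe set on its own, quantile normalization, median centring, or eBayes with trend and robust, 0 members passed and Sirt7 was the 1 pathway gene that passed. The number of all genes passing, 2 in the fit as reported, was 1 with the mean of probe sets and 3 with trend and robust. With array weights, which ran from 0.31 to 6.12 over the 6 arrays, it was 1748 (21.0%), 659 higher and 1089 lower. With those weights 1 member, Haao (-0.65, limma adjusted p = 0.0337), and 13 pathway genes passed, and Nadk turned to -0.168. Nmnat1 turned to 0.081 with the mean of its probe sets and Nampt to 0.00033 with median centring. Without 1 liver the number of all genes passing ran from 1 to 38 (1 without knockout replicate 2 or 3, 5 without knockout replicate 1, 2 without wild-type replicate 1, 7 without wild-type replicate 2 and 38 without wild-type replicate 3), with 0 members and 1 pathway gene each time. The differences that changed sign there ran from -0.119 to 0.091 (Nadk), from -0.178 to 0.122 (Nampt) and from -0.826 to 0.167 (Nnmt). The causes were not tested.

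The replicate numbers share no stated animal, litter or day. Same-numbered knockout and wild-type livers deviated from their group means with correlations of -0.089, -0.091 and -0.194 across genes, and no liver correlated best with its own number. With the replicate number as a block, 2 of all genes, 0 members and 1 pathway gene passed. The half-widths of the members' 95% intervals, before any adjustment, ran from 0.42 (Nmnat1) to 1.12 log2 units (Nnmt). These are not limits of detection, since passing required an adjusted p under 0.05. With 3 livers per group, larger differences could also fail to pass. Nt5c2, at 0.78 with a half-width of 0.65, did not pass (limma adjusted p = 0.76).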
